A study of Mus musculus with 6 samples.

Results

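Type VI collagen is built from chains encoded in the mouse by the genes *Col6a1* to *Col6a6*. These 6 genes were taken from the count table by name, out of 54532 genes, and all 6 passed the filter on low counts that left 18689 genes for testing. They were selected on their WT against ISM1-KO difference in library-scaled counts, which was already known, so the differences between genotypes are given below as a description, with no test. Collagen VI forms beaded microfibrils around cells and next to basement membranes. The α1 and α2 chains, encoded by *Col6a1* and *Col6a2*, assemble with a longer chain, classically α3 from *Col6a3*, and the monomers pair into dimers and tetramers inside the cell before they are secreted. The α4, α5 and α6 chains resemble α3 and can take its place in the trimer, and in connective tissues fibroblasts are a main source of the protein.

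The study asked how loss of ISM1 (isthmin 1), a secreted protein of the lung, alters the transcriptome of the unchallenged lung. RNA was taken from whole lungs flushed free of blood, from 3 WT C57BL/6J mice bought from a supplier and 3 *ISM1*-/- mice bred in-house on C57BL/6J, all untreated and 2 months old. The source of the mice and the genotype therefore cannot be told apart. Directional libraries of poly-A-selected RNA were sequenced in read pairs. The totals lay between 37606133 and 42345042 counts per library. In bulk lung RNA, fewer cells of a type and less RNA per cell cannot be told apart.

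The targeted gene *Ism1* was not lost from the libraries labelled ISM1-KO. The 3 WT libraries held 3098, 3215 and 2975 of its reads, and those labelled ISM1-KO 2784, 2508 and 2953. At 69.0 ± 5.72 library-scaled counts (CPM; SD, n = 3) its mean level in ISM1-KO was 87.6% of the WT mean of 78.8 ± 2.88, with a log2 fold change of -0.19 ± 0.0709 (SE) and a Benjamini-Hochberg adjusted p of 0.217 by edgeR's quasi-likelihood test. The transcript level thus does not check the genotype label, and each direction below is that of the libraries labelled ISM1-KO.

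The 6 genes lie at 3 loci, all on the minus strand of GRCm38. *Col6a1* (ENSMUSG00000001119, chr10:76708792-76726168) and *Col6a2* (ENSMUSG00000020241, chr10:76595762-76623630) lie near each other on chromosome 10, while *Col6a3* (ENSMUSG00000048126, chr1:90765923-90843971) stands alone on chromosome 1. *Col6a4* (ENSMUSG00000032572, chr9:105989454-106096783), *Col6a5* (ENSMUSG00000091345, chr9:105856078-105960643) and *Col6a6* (ENSMUSG00000043719, chr9:105687809-105828160) follow each other on chromosome 9. Their longest coding transcripts run from 4100 bases in 35 exons for *Col6a1* and 4653 bases in 28 exons for *Col6a2* to 10106 bases in 44 exons for *Col6a3*. The chromosome 9 genes code for long chains as well, with 7371 bases in 38 exons for *Col6a4*, 9289 bases in 41 exons for *Col6a5* and 8781 bases in 37 exons for *Col6a6*.

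The RT-PCR primer pair that the study designed for *Col6a4* is shown because it fixes which transcript of that gene can be amplified. Both primers matched 1 of the 4 *Col6a4* transcripts of the annotation, the protein-coding one of 7371 bases, and the transcripts of no other gene. The forward primer lies in exon 2 (chr9:106082873-106082892) and the reverse primer in exon 3 (chr9:106080408-106080427, GRCm38), with a product of 166 bases across the intron. Both are printed as designed, from 5′ to 3′, with no capitals.
Col6a4 forward: gggcttcgtcaagtcacaga
Col6a4 reverse: acccacacggatgttgtctc

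The sequence upstream of the chromosome 9 genes is shown because *Col6a4* differed between the genotypes and its cluster neighbours *Col6a5* and *Col6a6* did not separate them. Each run is from RefSeq (GRCm38.p6), read on the minus strand from 5′ to 3′, and ends before the first base of the gene in both annotations: chr9:106096784-106096941 for *Col6a4*, chr9:105960644-105960893 for *Col6a5* and chr9:105828161-105828335 for *Col6a6*. Capitals mark the motifs CCAAT and GGGCGG (a GC box), searched on both strands, so that CCGCCC is GGGCGG read on the other strand.
Col6a4 upstream: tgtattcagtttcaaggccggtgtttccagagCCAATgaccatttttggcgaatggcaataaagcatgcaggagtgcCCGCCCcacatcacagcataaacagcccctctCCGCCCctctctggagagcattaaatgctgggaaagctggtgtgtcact
Col6a5 upstream: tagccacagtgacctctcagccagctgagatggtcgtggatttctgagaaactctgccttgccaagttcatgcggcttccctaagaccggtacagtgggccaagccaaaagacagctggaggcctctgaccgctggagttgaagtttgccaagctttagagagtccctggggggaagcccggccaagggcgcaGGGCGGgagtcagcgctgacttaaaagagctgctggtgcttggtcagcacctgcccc
Col6a6 upstream: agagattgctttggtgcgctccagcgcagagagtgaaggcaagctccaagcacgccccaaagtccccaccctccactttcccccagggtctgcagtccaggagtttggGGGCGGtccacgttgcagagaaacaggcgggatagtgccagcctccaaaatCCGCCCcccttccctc

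In the full window of 250 bases before the RefSeq start, *Col6a4* held CCAAT at 218 bases and GGGCGG at 173 and 141 bases before the start. *Col6a5* held GGGCGG at 57 bases, and *Col6a6* at 142 and 91 bases, before their starts. CCAAT was present in 33.8% and GGGCGG in 32.7% of the 32817 windows of that length in the table, so neither motif is rare. Of the 7 windows of the collagen VI genes (*Col6a2* has 2), 5 held GGGCGG and 1 held CCAAT. The AP-1 motif TGACTCA, present in 4.46% of all windows, stood only in that of *Col6a1*, at 90 bases before the start, and neither TATAAA (12.4% of all windows) nor CACGTG (6.02%) was found in any of the 7. The *Col6a4* window was 55.2% G and C, that of *Col6a5* 58.8% and that of *Col6a6* 62.4%, against a median of 52.4% over all windows. These matches describe the letters only.

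The transcripts of collagen VI fell into an abundant and a scarce group. *Col6a1*, *Col6a2* and *Col6a3* were among the well expressed genes of the lung, whereas *Col6a4*, *Col6a5* and *Col6a6* were near the lower end of the tested genes. On the FPKM scale, which divides fragments by gene length and library size, *Col6a1* stood at 142 ± 2.63 in WT (SD, n = 3) and 134 ± 3.37 in ISM1-KO, the highest of the 6 chains in 6 of 6 libraries and at percentile 96.5 of the tested genes. *Col6a2* had an FPKM of 59.5 ± 2.13 in WT and 53.7 ± 2.39 in ISM1-KO. *Col6a3* had an FPKM of 54.0 ± 0.466 in WT and 55.9 ± 0.35 in ISM1-KO. *Col6a2* lay above *Col6a3* in 3 of 3 WT libraries and in 1 of 3 ISM1-KO libraries, so the order of these chains was not the same in every library.

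The 3 chromosome 9 chains were all under 3 FPKM. *Col6a4* had an FPKM of 0.53 ± 0.0669 in WT and 2.36 ± 0.194 in ISM1-KO (percentile 22.8 over both genotypes). *Col6a5* followed with 0.302 ± 0.0706 and 0.263 ± 0.0257 (percentile 4.67) and *Col6a6* with 0.173 ± 0.0682 and 0.186 ± 0.0438 (percentile 2.03). *Col6a4* was above *Col6a5*, and *Col6a5* above *Col6a6*, in 6 of 6 libraries. The WT ranges of *Col6a5* (0.251 to 0.382 FPKM) and of *Col6a6* (0.11 to 0.245 FPKM) lay next to each other without overlap.

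The order within each group depends on the length each gene is given. The deposited FPKM equals counts scaled by the mean length of all annotated transcripts of a gene (within 1%) for 17907 of 18674 genes, which is 2512 bases for *Col6a1*, 4716 for *Col6a3* and 2694 for *Col6a4*, all far shorter than their longest coding transcripts. Scaled instead to the longest coding transcript, the WT means in CPM per kilobase were 86.9 for *Col6a1*, 57.4 for *Col6a2*, 25.1 for *Col6a3*, 0.193 for *Col6a4*, 0.195 for *Col6a5* and 0.13 for *Col6a6*. On that scale *Col6a2* was above *Col6a3* in 6 of 6 libraries, *Col6a4* above *Col6a5* in 5 of 6 (2 of 3 WT) and *Col6a5* above *Col6a6* in 4 of 6. The split between the abundant and the scarce chains was the same on each scale.

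**Figure D1:**
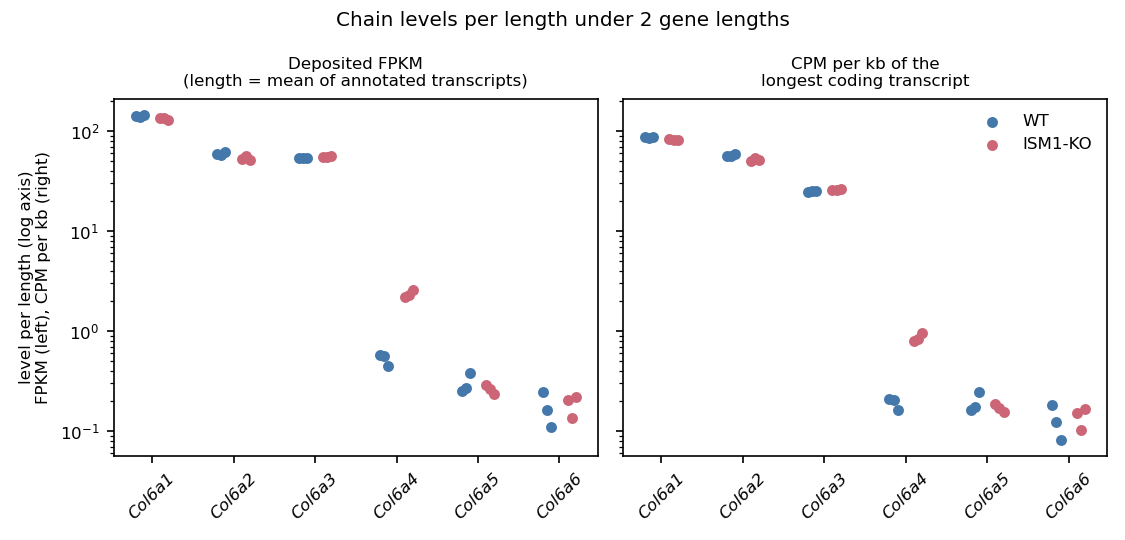
Level of the 6 collagen VI chains in each library, on a log axis, as deposited FPKM and as CPM per kilobase of the longest coding transcript, with points for the 3 WT and 3 ISM1-KO libraries. *Col6a1*, *Col6a2* and *Col6a3* stand far above *Col6a4*, *Col6a5* and *Col6a6* on either scale, and only for *Col6a4* are the genotypes set widely apart.

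*Col6a4* was the one chain with a large difference between the genotypes. The WT libraries held 58, 63 and 47 of its reads, whereas ISM1-KO held 251, 235 and 275. Every ISM1-KO library was far above every WT library. As a measure of the precision of each count, the exact 95% Poisson intervals, which cover counting error only, spanned 34.5 to 80.6 reads over the WT libraries and 206 to 309 reads over the ISM1-KO libraries. Scaled to library size, *Col6a4* stood at 1.537, 1.517 and 1.214 CPM in WT and 5.898, 6.188 and 7.042 CPM in ISM1-KO. The mean was 1.42 ± 0.181 CPM in WT and 6.38 ± 0.595 CPM in ISM1-KO (SD, n = 3), a ratio of 4.48. The log2 fold change was 2.16 ± 0.158 (SE; 95% interval 1.85 to 2.47), which placed *Col6a4* at rank 27 of 18689 genes ordered from the highest to the lowest log2 fold change. This and the other 95% intervals of log2 fold changes use a normal approximation, which makes them too narrow for 3 libraries per genotype.

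Even in ISM1-KO the gene stayed scarce beside the classical long chain, with 0.0225, 0.0237 and 0.0262 *Col6a4* counts per *Col6a3* count, against 0.0061, 0.00598 and 0.00474 in WT.

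The annotated genes that overlap *Col6a4* held almost no reads. They are Gm24631, the antisense gene Gm47575 and Gm36993, all on the plus strand, with 0, 1 and 1 counts over the 6 libraries. *Col6a3* is overlapped by Gm36970, with 3 counts, and *Col6a6* by Gm38314, with 7 counts. No annotated gene overlaps *Col6a1*, *Col6a2* or *Col6a5*. The libraries were directional, but whether strand was used in counting is not given in the sources used here.

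The other chains of the chromosome 9 cluster did not separate the genotypes. *Col6a5* had 57, 68 and 89 counts in WT and 74, 60 and 57 in ISM1-KO, and the ranges overlapped. Its mean level was 1.82 ± 0.424 CPM in WT and 1.59 ± 0.14 CPM in ISM1-KO, with a log2 fold change of -0.19 ± 0.217 (SE; 95% interval -0.61 to 0.24). *Col6a6* had 61, 45 and 28 counts in WT and 57, 34 and 57 in ISM1-KO, again with overlapping ranges. Its mean level was 1.14 ± 0.449 CPM in WT and 1.23 ± 0.297 CPM in ISM1-KO, with a log2 fold change of 0.11 ± 0.319 (95% interval -0.51 to 0.74). Both intervals are wide, and hold differences in either direction.

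The makeup of the scarce group therefore differed between the genotypes. *Col6a4* gave 33.0, 35.8 and 28.7% of the counts of the 3 chromosome 9 chains in WT and 65.7, 71.4 and 70.7% in ISM1-KO. The ratio of *Col6a4* to *Col6a5* counts within a library was 1.02, 0.926 and 0.528 in WT and 3.39, 3.92 and 4.82 in ISM1-KO. Summed over the 3 chains, the level was 4.664, 4.237 and 4.237 CPM in WT and 8.976, 8.663 and 9.961 CPM in ISM1-KO. All of these measures were without overlap between genotypes, and all rest on the *Col6a4* counts that chose the gene.

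*Col6a1* and *Col6a2*, whose chains enter every collagen VI trimer, were slightly lower in the ISM1-KO libraries. *Col6a1* stood at 356.7, 350.2 and 362.4 CPM in WT and 341.1, 337.2 and 331.2 CPM in ISM1-KO. The ISM1-KO mean of 336.5 ± 4.99 CPM was 94.4% of the WT mean of 356.4 ± 6.11 CPM, with a log2 fold change of -0.08 ± 0.0517 (SE; 95% interval -0.18 to 0.02). Before scaling, its WT reads numbered 13460, 14549 and 14029 and its ISM1-KO reads 14517, 12807 and 12934, and the genotypes came apart only after scaling to library size. *Col6a2* stood at 263.0, 260.9 and 277.9 CPM in WT and 236.5, 253.7 and 237.3 CPM in ISM1-KO. The ISM1-KO mean of 242.5 ± 9.69 CPM was 90.7% of the WT mean of 267.3 ± 9.28 CPM, with a log2 fold change of -0.14 ± 0.0572 (95% interval -0.25 to -0.03).

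*Col6a3* was slightly higher in the ISM1-KO libraries. It stood at 252.0, 253.8 and 256.2 CPM in WT and 261.6, 261.6 and 269.2 CPM in ISM1-KO. The means were 254.0 ± 2.10 and 264.2 ± 4.40 CPM, with a log2 fold change of 0.06 ± 0.0509 (SE; 95% interval -0.04 to 0.16). The differences of these 3 chains were small beside that of *Col6a4*, but in CPM no WT library overlapped an ISM1-KO library for any of them. As for *Col6a1*, the genotypes overlapped before scaling for the other abundant chains. The reads of *Col6a2* numbered 9925, 10839 and 10758 in WT and 10065, 9634 and 9268 in ISM1-KO. Those of *Col6a3* numbered 9511, 10543 and 9917 in WT and 11134, 9935 and 10514 in ISM1-KO. With *Col6a4*, 4 of 6 chains were without overlap in CPM, *Col6a1* and *Col6a2* being lower and *Col6a3* and *Col6a4* higher in ISM1-KO. Of all genes tested, 21.6% were without overlap, 9.33% higher and 12.3% lower in ISM1-KO.

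**Figure D2:**
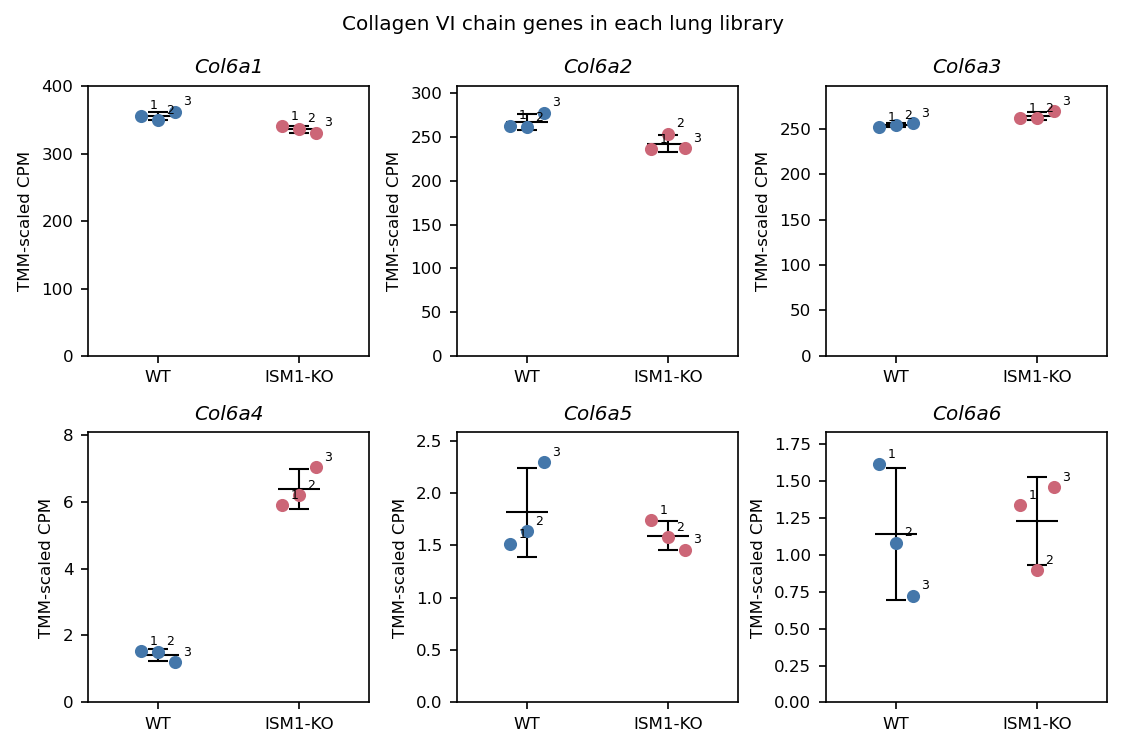
Each of the 6 collagen VI chains in its own panel, in CPM on an axis that starts at 0, with 1 point per library and the mean ± SD of the 3 WT and the 3 ISM1-KO libraries. *Col6a4* goes from 1.42 CPM in WT to 6.38 CPM in ISM1-KO without overlap, and *Col6a5* and *Col6a6* overlap.

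The ratios of the abundant chains were compared within each library. There were 1.36, 1.34 and 1.3 *Col6a1* counts per *Col6a2* count in WT and 1.44, 1.33 and 1.4 in ISM1-KO, with overlapping ranges. The ratio of *Col6a3* to *Col6a1* counts was 0.707, 0.725 and 0.707 in WT and 0.767, 0.776 and 0.813 in ISM1-KO. This ratio did not overlap, with means of 0.713 ± 0.0103 and 0.785 ± 0.0244 (SD, n = 3). Summed over the 3 abundant chains, the level was 877.7 ± 16.7 CPM in WT and 843.2 ± 8.12 CPM in ISM1-KO, and over all 6 chains 882.1 ± 16.6 and 852.4 ± 7.63 CPM. *Col6a4* made up 0.207 ± 0.0295% of the summed FPKM of the 6 chains in WT and 0.96 ± 0.0954% in ISM1-KO, and 0.114% and 0.536% when levels were scaled to the longest coding transcript.

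The spread between libraries of 1 genotype was wider for the scarce chains. The coefficients of variation of CPM were 1.71% in WT and 1.48% in ISM1-KO for *Col6a1*, 3.47 and 3.99% for *Col6a2*, and 0.826 and 1.67% for *Col6a3*. They were 12.7 and 9.33% for *Col6a4*, 23.3 and 8.79% for *Col6a5*, and 39.4 and 24.1% for *Col6a6*. The values of the abundant chains are therefore the firmer ones, and *Col6a6*, with 28 to 61 counts per library, is the least precise of the 6.

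The genes around the 3 loci were examined next, as every tested gene within 500 kb of each locus. Near *Col6a4*, *Col6a5* and *Col6a6*, 21 of 42 listed genes were tested and 0 met the 2-fold rule (an adjusted p under 0.1 with at least a 2-fold difference) in edgeR or in DESeq2. Of all genes tested, 0.567% met that rule in edgeR, 0.284% being higher and 0.284% lower in ISM1-KO. By edgeR's unadjusted p under 0.05, 0 were higher and 2 lower, where 15.8% of all genes passed (6.48% higher and 9.3% lower), and with no fold minimum 0 passed in either tool. Their median log2 fold change was 0.0, equal to the median of 0.0 over all genes, and the range was -0.33 to 0.46. The 3 with the largest differences were Gm28959 at 0.46 ± 0.217 (SE), *Nek11*, which encodes a kinase of the DNA damage checkpoint, at -0.33 ± 0.152, and *Alas1*, the first enzyme of haem synthesis, at -0.20 ± 0.0698. None of these passed in edgeR, where the Benjamini-Hochberg adjusted p was 0.344, 0.326 and 0.178.

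Near *Col6a1* and *Col6a2*, 12 of 29 listed genes were tested, 0 met the 2-fold rule in edgeR or DESeq2, and by edgeR's unadjusted p under 0.05 0 were higher and 2 lower (6.48% and 9.3% of all genes). The median log2 fold change was 0.04, with a range of -0.37 to 0.2. With no fold minimum, the rule met by 4.72% of all genes (1.38% higher and 3.34% lower), *Lss*, the lanosterol synthase of cholesterol synthesis, was lower. It stood at 49.1 ± 3.42 CPM in WT and 40.0 ± 2.94 CPM in ISM1-KO (SD, n = 3), without overlap. Its log2 fold change was -0.29 ± 0.0784 (SE), with a Benjamini-Hochberg adjusted p of 0.0899 by edgeR's quasi-likelihood test. This call was lost without WT replicate 2 or 3 or ISM1-KO replicate 1 or 2, where the adjusted p by edgeR was 0.298, 0.229, 0.185 and 0.254.

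Near *Col6a3*, 9 of 22 listed genes were tested and 0 met either rule in edgeR or DESeq2. Their median log2 fold change was -0.04, with a range of -0.69, in a gene with a mean under 1 CPM, to 0.13. By edgeR's unadjusted p under 0.05, 0 were higher and 3 lower, against 6.48% and 9.3% over all genes. The largest differences among those with a mean of at least 1 CPM were in *Ramp1*, which encodes a coreceptor for calcitonin gene-related peptide, at -0.26 ± 0.0827 (SE), *Mlph*, which encodes the melanosome transport protein melanophilin, at -0.21 ± 0.0682, and the small GTPase gene *Rab17* at 0.13 ± 0.172. Their Benjamini-Hochberg adjusted p by edgeR's quasi-likelihood test was 0.156, 0.165 and 0.79.

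**Figure D3:**
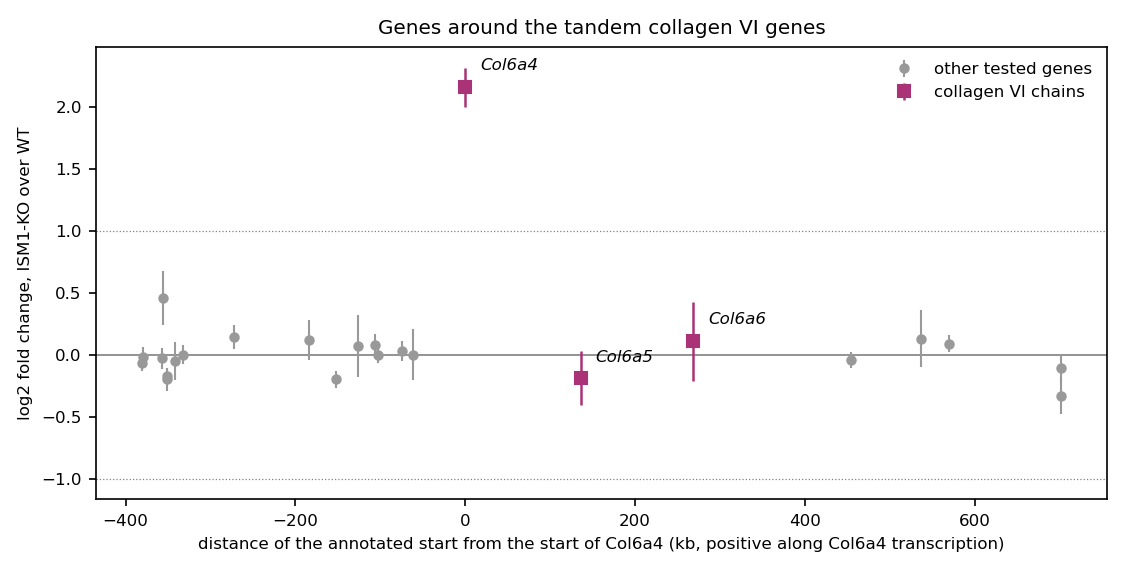
Log2 fold change (ISM1-KO over WT, bars SE) of *Col6a4*, *Col6a5* and *Col6a6* (squares) and of the 21 other tested genes within 500 kb (circles), against the distance of each gene's start from that of *Col6a4* in kilobases, with dotted lines at a 2-fold difference. *Col6a4*, at 2.16, lies beyond the line, and the other genes lie between -0.33 and 0.46.

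Among the genes that handle collagen VI outside the cell, the receptors came first. Of 10 receptor genes, 10 were tested and 0 met the 2-fold rule in edgeR or DESeq2, while 8 had a positive log2 fold change and the median was 0.12 (range -0.14 to 0.24), against 0.0 over all genes. By edgeR's unadjusted p under 0.05, 4 were higher and 0 lower, where 6.48% of all genes were higher and 9.3% lower. With no fold minimum, *Itga2*, the α2 subunit of a collagen-binding integrin, was the 1 gene higher in edgeR, and *Itga2* and *Itga1* (log2 fold change 0.24) in DESeq2. The genotypes overlapped for *Itga1*, at 539, 467 and 456 CPM in WT and 567, 528 and 628 CPM in ISM1-KO. Its adjusted p was 0.0915 by the DESeq2 Wald test and 0.198 by edgeR's quasi-likelihood test. *Itga2* stood at 43.4, 40.7 and 44.4 CPM in WT and 49.8, 51.3 and 49.1 CPM in ISM1-KO, without overlap. Its log2 fold change was 0.23 ± 0.0622 (SE) with a Benjamini-Hochberg adjusted p of 0.0997 by edgeR's quasi-likelihood test, next to the threshold. The call was kept only without ISM1-KO replicate 3 (adjusted p of 0.0643 by edgeR) and lost on leaving out any other library, where the adjusted p by edgeR was 0.155, 0.346 and 0.182 without WT replicate 1, 2 and 3 and 0.237 and 0.256 without ISM1-KO replicate 1 and 2. It was also lost with no filter on low counts (adjusted p of 0.116 by edgeR) and with the replicate number as a block (0.115).

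The binding proteins of the matrix were mostly close to 0. Of 12 partner genes, 10 were tested and 0 met the 2-fold rule in edgeR or DESeq2, with a median log2 fold change of -0.03 (range -0.54 to 0.14). By edgeR's unadjusted p under 0.05, 1 was higher and 2 lower, beside the same 6.48% and 9.3% of all genes. With no fold minimum *Dcn*, which encodes the small proteoglycan decorin that binds collagen fibrils and collagen VI, fell in edgeR, and *Dcn* and the fibronectin gene *Fn1* (log2 fold change -0.19) in DESeq2. *Dcn* stood at 172, 148 and 161 CPM in WT and 102, 97.6 and 130 CPM in ISM1-KO, without overlap. Its log2 fold change was -0.54 ± 0.105 (SE), with a Benjamini-Hochberg adjusted p of 0.0328 by edgeR's quasi-likelihood test. Without ISM1-KO replicate 1 or 2 the adjusted p by edgeR was 0.133 and 0.128.

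Genes for the folding, modification and secretion of collagen chains did not pass. Of 21 listed and tested, 0 met either rule in edgeR or DESeq2, and by edgeR's unadjusted p under 0.05, 2 were higher and 0 lower (6.48% and 9.3% of all genes). The median log2 fold change was -0.01, with a range of -0.07 to 0.27. The largest differences were in the lysyl hydroxylase gene *Plod2* at 0.27 ± 0.124 (SE), the prolyl 3-hydroxylase gene *P3h2* at 0.24 ± 0.101 and *Serpinh1*, which encodes the collagen chaperone HSP47, at 0.18 ± 0.0745. The Benjamini-Hochberg adjusted p of these genes by edgeR's quasi-likelihood test was 0.322, 0.274 and 0.272. The 3 protease genes *Mmp14*, *Mmp2* and *Bmp1* had log2 fold changes of -0.09 ± 0.0635, -0.07 ± 0.0745 and -0.04 ± 0.0608, and 0 met either rule in edgeR or DESeq2, nor did any reach an unadjusted p under 0.05 in edgeR.

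**Figure D4:**
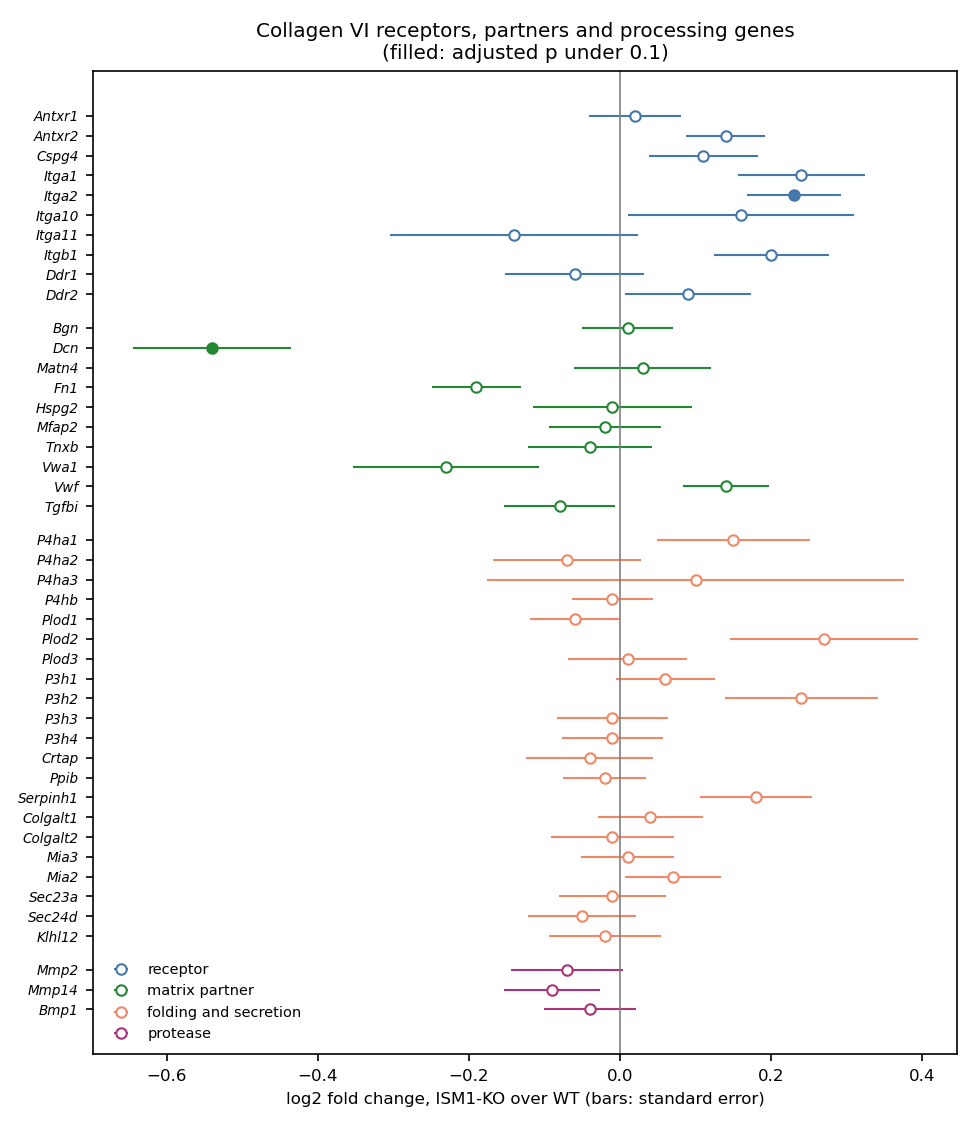
Log2 fold change (ISM1-KO over WT) with SE bars for each tested gene of the receptor, matrix partner, folding and secretion, and protease lists, by colour, with filled points for an adjusted p under 0.1 in edgeR. All listed genes lie between -0.54 (*Dcn*) and 0.27 (*Plod2*), and *Itga2* and *Dcn* are the filled points.

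By centred log2 CPM over the 6 libraries, the gene nearest to *Col6a4* was *Jchain*, the joining chain of polymeric IgA and IgM. Nearness was the root mean square difference of log2 CPM centred on each gene's mean, over the 15875 genes whose mean reached 1 CPM. It was 0.262 for *Jchain*, 0.269 for the light-chain segment *Igkv6-23*, 0.332 for *Igha*, the constant region of IgA, 0.454 for *Cyp1a1*, a cytochrome P450 enzyme that oxidises aromatic compounds, and 0.541 for *S100a8*, a calprotectin subunit of neutrophils. *Jchain* stood at 4.11, 3.95 and 4.47 CPM in WT and 22.0, 14.1 and 18.5 CPM in ISM1-KO. *Igha* stood at 10.9, 14.3 and 17.2 CPM in WT and 68.4, 48.7 and 76.2 CPM in ISM1-KO. With these 5 genes *Col6a4* shares low WT and high ISM1-KO levels over only 6 libraries, and reads of *Igkv6-23* are uncertain because near-identical segments can share them. *Igkv6-23* had means of 0.537 CPM in WT and 2.18 CPM in ISM1-KO, and so reached 1 CPM only through ISM1-KO. The other chains were far down this order, *Col6a6* at rank 3931, *Col6a3* at 4709, *Col6a1* at 11043, *Col6a2* at 12536 and *Col6a5* at 13807. The distance holds the size of the difference that chose *Col6a4*, so these ranks add no support.

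For *Col6a1*, whose profile was nearly flat, near genes were nearly flat as well. Among them were *Ndufb11*, a subunit of respiratory complex I, at a difference of 0.0142, the prohibitin gene *Phb* at 0.0149, *Ttc5* at 0.0159 and *Sytl4* at 0.0162. *Col6a2* was at rank 478 (0.0478) and *Col6a3* at rank 2768 (0.0752) in that order.

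Markers of the cells that a lung sample can hold moved with the genotypes for some cell types. For comparison, 0.284% of all genes tested were higher and 0.284% lower in ISM1-KO by the 2-fold rule in edgeR. With no fold minimum the shares were 1.38% higher and 3.34% lower. Summed over 8 fibroblast markers, the level was 2680 to 2860 CPM in WT and 2570 to 2750 CPM in ISM1-KO, with 0 of 8 past the 2-fold rule. With no fold minimum, 3 of 8 were lower (*Pi16* at -0.97, *Col1a1* at -0.33 and *Dpt* at -0.26 on the log2 scale). The other fibroblast markers met neither rule and went both ways, with *Tcf21* at 0.17, *Pdgfra* at 0.08, *Inmt* at 0.06, *Col13a1* at -0.02 and *Col1a2* at -0.18. The 6 adipocyte markers summed to 135 to 174 CPM in WT and 28.1 to 72.9 CPM in ISM1-KO, with 5 of 6 lower by the 2-fold rule. The 8 cardiomyocyte markers summed to 490 to 1530 CPM in WT, WT replicate 1 being the highest, and 264 to 522 CPM in ISM1-KO, with 1 of 8 lower. The 4 plasma cell markers summed to 193 to 201 CPM in WT and 253 to 295 CPM in ISM1-KO, with 2 of 4 (*Jchain* and *Igha*) higher by the 2-fold rule. Most reads of these sums were of *Xbp1* (0.08 on the log2 scale), and neither *Xbp1* nor *Mzb1* (0.43) met either rule in edgeR. The 6 smooth muscle markers summed to 542 to 629 CPM in WT and 445 to 562 CPM in ISM1-KO, and the 5 mesothelial markers to 229 to 255 and 238 to 327 CPM. With no fold minimum 1 of 6 smooth muscle markers was lower (*Cnn1* at -0.75 on the log2 scale) and 1 of 5 mesothelial markers higher (*Upk1b* at 0.35), and 0 met the 2-fold rule. Of the 4 alveolar type 1 markers, which summed to 2430 to 3340 CPM in WT and 3230 to 3440 CPM in ISM1-KO, 1 was higher with no fold minimum (*Rtkn2* at 0.45). WT replicate 1 was the lowest library, at 2430 CPM against 3280 and 3340 CPM in WT replicates 2 and 3. *Rtkn2* was likewise lowest there, with 8360 counts against 12367 and 11864. Pericyte markers (443 to 544 and 440 to 516 CPM), Schwann cell markers (74.8 to 77.5 and 71.9 to 74.6 CPM) and skeletal muscle markers (8.83 to 17.1 and 5.31 to 9.12 CPM, with *Myh4* at 0) had 0 genes past either rule in edgeR. Most reads of the skeletal muscle sums were of *Ckm*, and *Acta1* had at most 7 counts in any library, so these sums do not show skeletal muscle. Cartilage is one possible source of collagen VI, and of its 6 markers 3 were tested, with a sum of 31.1 to 32.1 CPM in WT and 18.9 to 21.9 CPM in ISM1-KO that was nearly all *Chad*, the 1 of them lower with no fold minimum (-0.62 on the log2 scale). The defining cartilage markers *Acan* and *Col2a1* had at most 8 and 22 counts in any library. The part of these markers in the values of the collagen VI chains was not tested.

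Alveolar type 2 markers summed to 20700 to 21100 CPM in WT and 19500 to 20600 CPM in ISM1-KO, and 0 of 5 met either rule in edgeR. For the 4 endothelial markers the sums were 2710 to 2860 and 2910 to 3040 CPM, again with 0 of 4. The log2 fold change of *Col6a4* was 2.06 to 2.22 over the left-out libraries, with 2.22 without WT replicate 1 and also without ISM1-KO replicate 1. Whether any marker has a part in it was not tested.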

How the data were processed

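Whole-lung RNA of 3 WT and 3 ISM1-KO mice was analysed from gene tables. The authors deposited raw counts per gene and, in the same kind of table, FPKM that they computed from those counts; the submitters' processing notes name CASAVA and STAR, with GRCm38 (mm10) as the genome. Reads were filtered for adaptors and low quality before alignment. The counting program, its annotation and its strand setting are not given in the sources used here. Gene lengths and transcripts were taken from GENCODE M21, upstream sequences from RefSeq.

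The collagen VI genes and all gene and marker lists were chosen with earlier results of these data known. Genes that reached 0.5 CPM in 1 or more libraries were tested by edgeR 4.0.16 (R 4.3.3), with TMM scaling, the quasi-likelihood test and Benjamini-Hochberg adjustment over all genes tested; a call needed a difference of 2-fold or more with an adjusted p under 0.1. CPM were scaled by TMM. The log2 CPM behind the nearest genes and the comparison of same-numbered libraries used a prior count of 2, which the log2 fold changes of the fit did not. The p-values set the difference between genotypes against the spread between these libraries. Replicates were not duplicates of each other: the chi-square per degree of freedom was 5.10 to 19.3 over the pairs of libraries of the same genotype. It was 14.2 to 27.6 over the pairs of a WT and an ISM1-KO library, out of 15 pairs in all. The fit was tested on simulated data.

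Named in the text are the 6 chains, *Ism1*, the genes that overlap a chain, listed genes called by either rule, the 3 largest differences (mean of at least 1 CPM) of a list with none, and the 5 genes nearest to *Col6a4* and to *Col6a1*. One gene that this rule names is not reported here. Genes that DESeq2 alone called and the marker genes named were added after their values were seen. Alternatives were DESeq2 1.42.0, RLE scaling, other filters and thresholds, a replicate block, limma 3.58.1 on log2(FPKM + 0.1), other gene lengths and each library left out. Replicate numbers are shared by both genotypes, but same-numbered libraries did not deviate together (r of -0.0405, 0.031 and 0.001 over genes).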

Additional observations from a re-analysis of the deposited data

How the results depend on the processing

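Over all genes, 106 were called. The count was 293 (113 higher, 180 lower) with no filter on low counts, 882 (258 and 624) with no fold minimum and 51 (25 and 26) at an adjusted p under 0.05. Leaving out a library gave 31 to 188 calls, 17 to 86 higher and 12 to 102 lower: 41 without WT replicate 2, 62 without WT replicate 3, and 31, 38 and 188 without ISM1-KO replicate 1, 2 and 3, with 34 lower calls without WT replicate 1. The cause was not tested. With no fold minimum, 1 receptor, 1 matrix partner and 1 neighbour of *Col6a1* and *Col6a2* were called, against 0 with it; in each list the count was 0 to 0 over the left-out libraries under the 2-fold rule.

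The log2 fold change of *Col6a4* was 1.97 by limma on log2(FPKM + 0.1), where the pseudocount pulls low values together, and 2.06 to 2.22 on leaving out a library. The other ranges over left-out libraries were -0.09 to -0.07 for *Col6a1*, -0.17 to -0.11 for *Col6a2*, 0.04 to 0.07 for *Col6a3*, -0.3 to 0.02 for *Col6a5* and -0.13 to 0.45 for *Col6a6*, so the sign of the last 2 is not fixed.

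Levels in WT followed the gene length used. Per kilobase of the gene length in the table they were 81.4, 32.1, 21.2, 0.167 and 0.193 CPM for *Col6a1* to *Col6a5*, and per kilobase of the longest coding transcript, a scale chosen after seeing the data, 86.9 for *Col6a1*, 25.1 for *Col6a3*, 0.193 for *Col6a4* and 0.195 for *Col6a5*. The mean ratio of *Col6a1* to *Col6a2* over the 6 libraries was 1.36 in counts, 2.44 in FPKM and 1.55 per longest coding transcript, and that of *Col6a3* to *Col6a1* 0.749, 0.399 and 0.304.

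With the replicate number as a block, 130 genes were called (68 higher, 62 lower) and the log2 fold change of *Col6a4* was 2.16. The libraries share only a number, and not every library correlated best with its own number. *Col6a5* and *Col6a6* had at most 89 counts in a library, and their values are the least precise.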
